A study of Mus musculus with 8 samples.

Results

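The 30 genes described here encode proteins that carry a cell into, through and out of mitosis: cyclins, kinases, the spindle checkpoint and the anaphase-promoting complex, kinetochore and chromosome proteins, spindle proteins and the cytokinesis machinery. They were taken by symbol from a count table of 24421 genes, all 30 were found, and all 30 passed the filter on low counts, which kept 13722 genes for testing. The choice of genes used no measured value of these samples, but it was made with earlier results of the same data known.

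RNA was sequenced from cultured mouse bone marrow cells of the C57BL/6 strain labelled with MLL-AF10, a fusion oncogene of acute leukemia, in 2 lines and 2 treatments with 2 libraries each. The MAflox line is labelled as MLL-AF10 flox cells, and the labels do not state whether it carries Cre. The MATIP line carries MLL-AF10, floxed Tip60 on both alleles and Cre-ERT2, a recombinase that 4-hydroxytamoxifen (4-OHT) switches on. Tip60 is the histone acetyltransferase encoded by Kat5. Each line was grown in methylcellulose medium with SCF, IL-3 and GM-CSF and received 100 nM 4-OHT or its vehicle ethanol (EtOH) for 4 days, so that every group shares the cytokines, and both lines are labelled as MLL-AF10 cells. The labels do not say which locus is floxed in MAflox cells or whether 4-OHT alters an allele there. The labels do not say that the replicates were separate cultures, so p-values measure the spread between these libraries, which may be technical.

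Mitosis begins when cyclin B bound to Cdk1 becomes active, which Cdc25 phosphatases promote. Aurora and polo-like kinases then drive centrosome maturation and spindle assembly, and the kinetochores tie each chromosome to microtubules under the watch of the spindle checkpoint. Once all chromosomes are attached, the anaphase-promoting complex with Cdc20 marks cyclin B and securin for destruction, the sister chromatids part, and a contractile ring at the spindle midzone divides the cell. Transcripts of these genes rise in G2 and M phase in cycling cells and fade when cells leave the cycle, as myeloid progenitors do when they mature.

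Libraries held 41101309 to 57312490 counts. Kat5 averaged 41.2 ± 0.100 CPM (counts scaled to library size; SD, n = 2) in MATIP cells with EtOH and 8.22 ± 0.154 CPM with 4-OHT, a log2 fold change of -2.32 ± 0.09 (SE) with adjusted p = 6.99e-15. In MAflox cells it stood at 42.4 ± 1.78 and 60.0 ± 3.55 CPM, a log2 change of 0.50 ± 0.07 upward. The floxed gene thus fell in the line that its label says carries the floxed alleles and Cre-ERT2.

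The mitosis genes fell nearly as a whole in MATIP cells with 4-OHT, whereas in MAflox cells with 4-OHT they went both ways. CPM of the 30 genes summed to 4956 and 4963 in the MATIP libraries with EtOH and to 2216 and 2174 in those with 4-OHT. In MAflox cells the sums were 5031 and 5265 with EtOH and 4681 and 4995 with 4-OHT. The 2 MATIP libraries with 4-OHT stood far below the other 6. Both MAflox libraries with 4-OHT lay below the EtOH pair of their line, by a margin that depends on the scaling. These CPM are TMM-scaled. As a share of all counts the 30 genes took 0.539% and 0.563% in MAflox cells with EtOH and 0.446% and 0.472% with 4-OHT. In MATIP cells the shares were 0.514% and 0.517% with EtOH and 0.212% and 0.204% with 4-OHT. For 28 of the 30 genes both MATIP libraries with 4-OHT lay below all of the other 6 libraries. The exceptions were Mki67 and Cenpe, described with the chromosome genes. The share of all tested genes with this order of libraries was not computed. These are RNA amounts of whole cultures, in which fewer dividing cells and less RNA per dividing cell cannot be told apart.

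**Figure D1:**
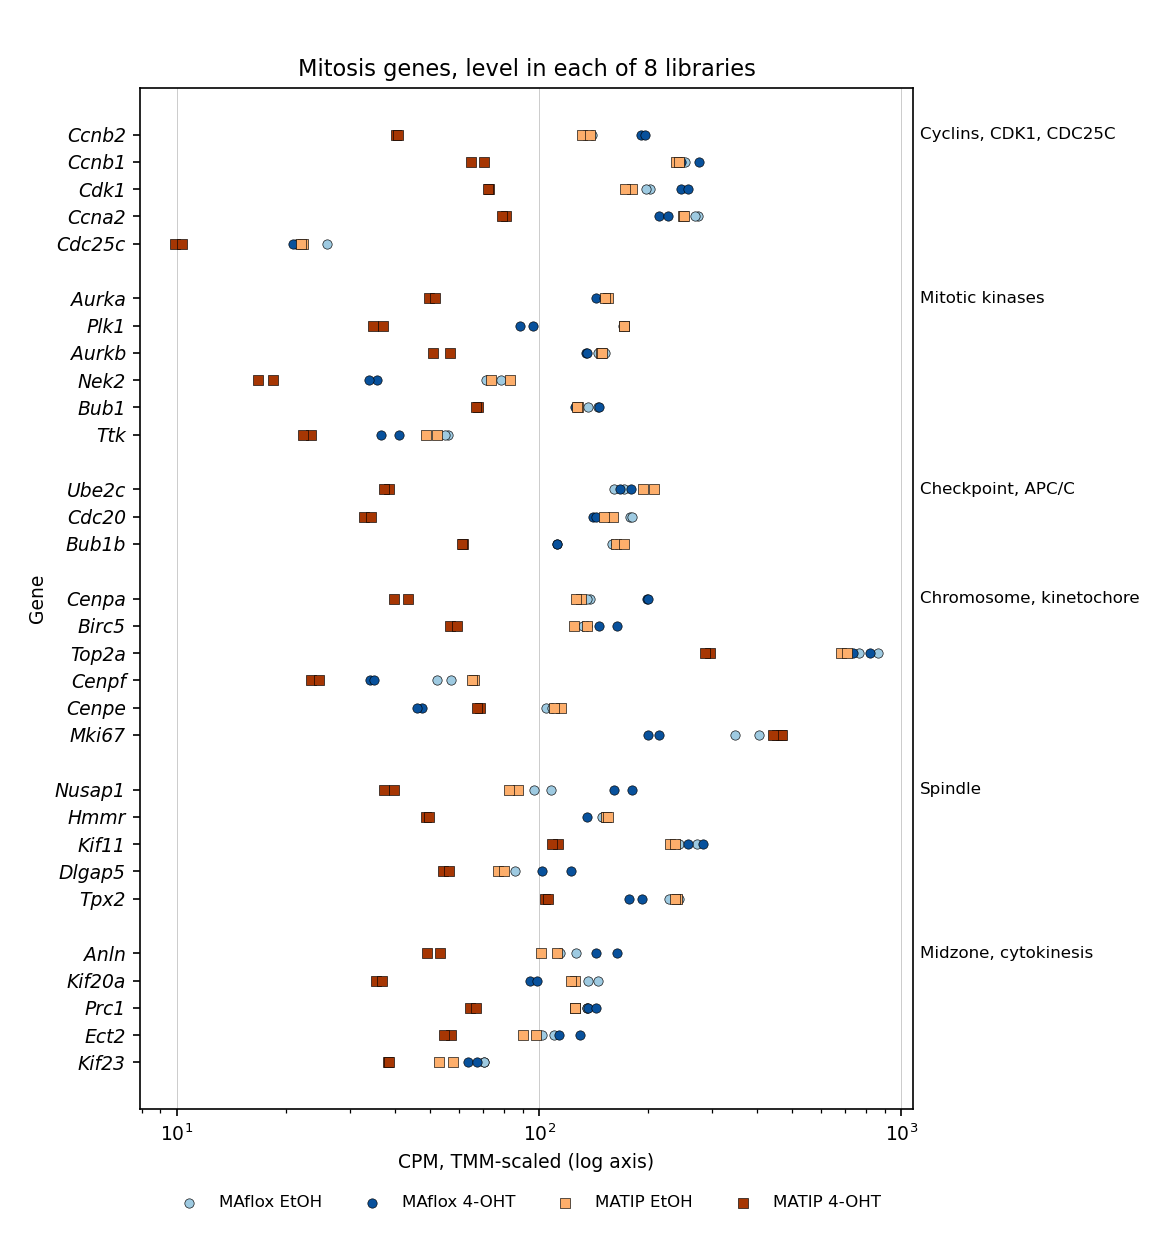
Level of each of the 30 mitosis genes in every library, in CPM on a log axis, with the genes ordered by role and a point for each of the 8 libraries coloured by group. The MATIP libraries with 4-OHT lie lowest for 28 genes, while Mki67 stands at 468 and 443 CPM there. The share of all tested genes with this order was not computed.

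By edgeR's quasi-likelihood test with Benjamini-Hochberg adjustment over all tested genes, 29 of the 30 fell with 4-OHT in MATIP cells and 0 rose. Among all tested genes 38.6% were called lower and 37.5% higher in that comparison. The median log2 fold change of the 30 genes was -1.27, beside 0.0039 for all tested genes, and 23 of the 30 fell at least 2-fold. The share of all tested genes that changed at least 2-fold was not computed for either line. The count of 0 rises was also 0 at an unadjusted p under 0.05 and 0 with DESeq2. In MAflox cells 8 of the 30 rose, 11 fell and 11 passed in neither direction, with a median of -0.0569 beside 0.0162 for all tested genes. There 33.1% of all tested genes were called higher and 32.1% lower, so the members' counts of 8 and 11 in 30 were near those of genes at large. Scaling by library totals alone, which shifts the median of all genes in MAflox cells by -0.163, turned the MAflox counts into 6 rises and 19 falls.

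The difference between the responses, tested as an interaction contrast, was called for all 30 genes. For 28 the response was lower in MATIP than in MAflox cells, and for Mki67 and Cenpe it was higher. The background was 33.6% of tested genes called lower and 28.3% called higher, and the median difference was -1.21 in log2 beside -0.0339 over all tested genes. Of the 30, 8 rose in MAflox cells and fell in MATIP cells, 10 fell in both, and 11 fell in MATIP cells without being called in MAflox cells. The shares of all tested genes with these joint patterns were not computed, so the counts are not read as a trait of the members. Across the 30 genes the sizes of the responses in the lines were hardly related, with a Spearman's rho of 0.12 and a Pearson's r of 0.09. The corresponding values over 13195 tested genes were 0.50 and 0.57. These are descriptions across genes, which share libraries and are not independent replicates. The calls in the authors' deposited table for the same 30 genes gave 8 rises and 11 falls in MAflox cells and 0 rises and 29 falls in MATIP cells.

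**Figure D2:**
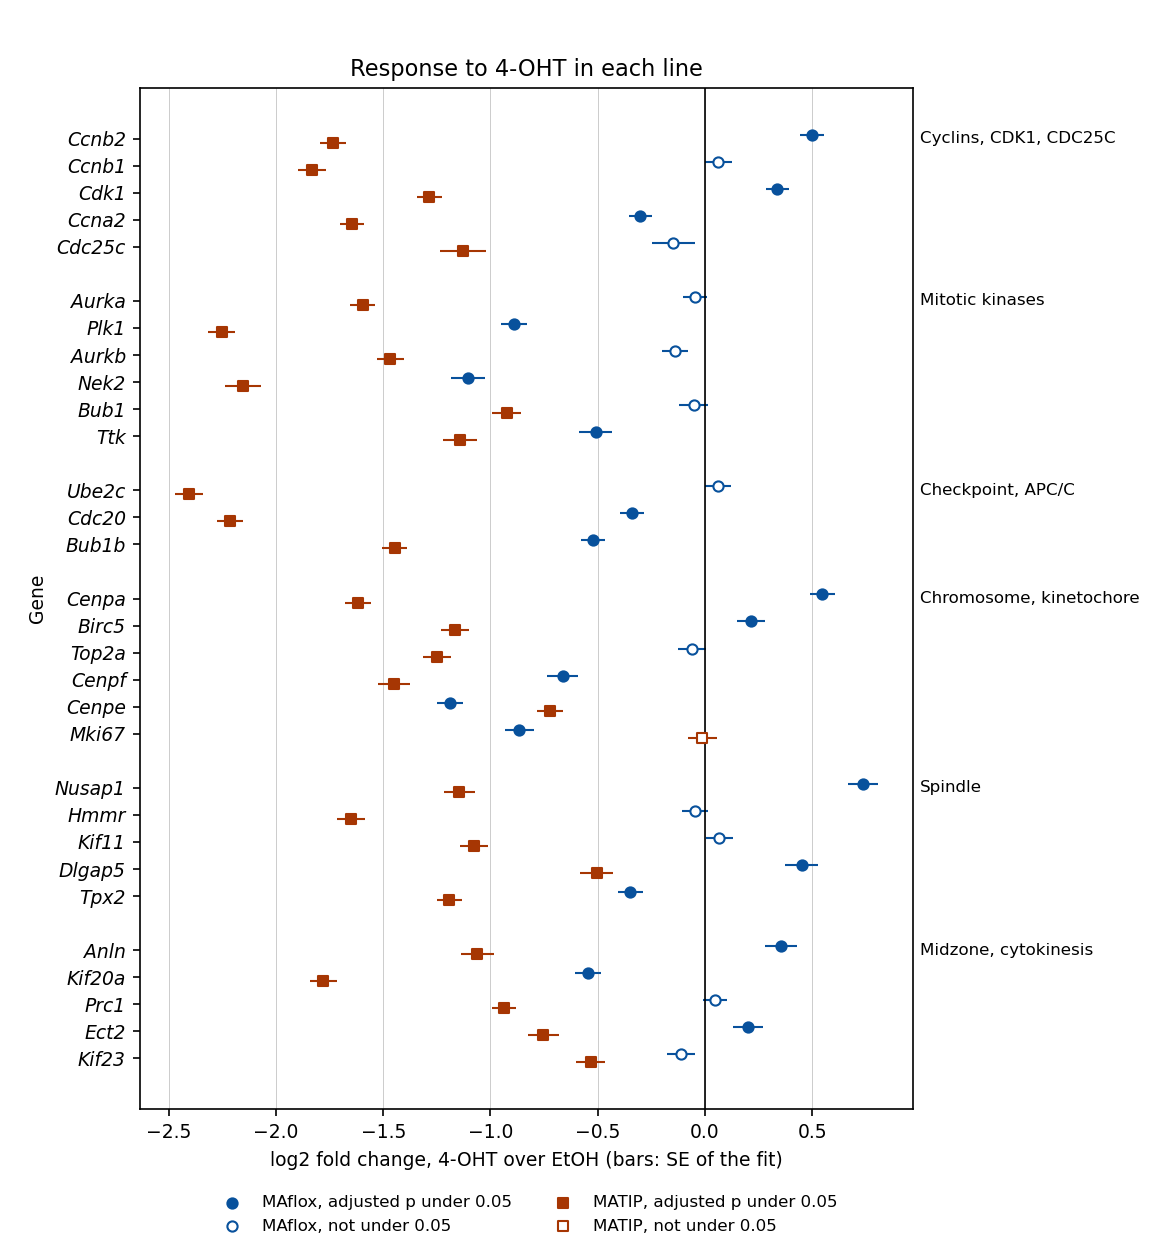
log2 fold change of 4-OHT against EtOH for each mitosis gene in MAflox and MATIP cells, with bars of 1 SE from the edgeR fit and the genes ordered by role. In MATIP cells 29 of 30 genes lie below 0 and were called, while the MAflox values lie between -1.19 for Cenpe and 0.73 for Nusap1.

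The promoter sequences of the members were read for the motifs best known from G2 and M phase genes. These are the cell cycle genes homology region (CHR), to which the DREAM and MuvB complexes bind, and the CCAAT box, the site of NF-Y. RefSeq promoter windows of the GRCm38.p6 build, from 250 bases before to 50 bases after the gene start, were at hand for 24 of the 30 genes. They were not for Aurkb, Ccna2, Cdc25c, Dlgap5, Kif20a and Tpx2. A CHR match, TTTGAA or TTCGAA on either strand, was present in 19 of 24 windows (79.2%) and in 5266 of 27025 windows of all genes (19.5%). A CCAAT match on either strand was present in 21 of 24 (87.5%) and in 10275 of all windows (38.0%). At least 2 CCAAT matches were found in 15 of 24 (62.5%) beside 12.1% of all windows, and a match to both motifs in 18 (75.0%) beside 7.73%. No CHR match overlapped a CCAAT match in the members' windows. A match is a description of letters in this window and not evidence of a bound site.

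The promoters of 4 genes are printed, written 5′ to 3′ on the gene's strand, with CHR and CCAAT matches in capitals. Ube2c (chr2:164769679-164769978, plus strand) had the largest fall of the 30 genes and Cdc20 (chr4:118437294-118437593, minus strand) one of the 3 largest. Mki67 (chr7:135716330-135716629, minus strand) was the 1 gene not called lower in MATIP cells. Birc5 (chr11:117848987-117849286, plus strand) is shown because it fell with no match to either motif in its window.
Ube2c: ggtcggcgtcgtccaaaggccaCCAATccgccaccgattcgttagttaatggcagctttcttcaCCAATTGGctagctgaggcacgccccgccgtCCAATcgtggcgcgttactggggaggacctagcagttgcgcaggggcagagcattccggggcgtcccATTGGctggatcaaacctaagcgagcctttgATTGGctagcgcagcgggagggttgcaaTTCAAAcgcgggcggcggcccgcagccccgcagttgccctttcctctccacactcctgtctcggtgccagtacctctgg
Cdc20: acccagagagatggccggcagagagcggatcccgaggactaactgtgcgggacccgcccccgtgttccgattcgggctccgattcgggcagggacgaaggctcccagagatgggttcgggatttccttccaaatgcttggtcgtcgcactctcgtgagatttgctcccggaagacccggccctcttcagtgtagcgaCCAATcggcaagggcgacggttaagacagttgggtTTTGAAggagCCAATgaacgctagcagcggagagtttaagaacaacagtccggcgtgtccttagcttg
Mki67: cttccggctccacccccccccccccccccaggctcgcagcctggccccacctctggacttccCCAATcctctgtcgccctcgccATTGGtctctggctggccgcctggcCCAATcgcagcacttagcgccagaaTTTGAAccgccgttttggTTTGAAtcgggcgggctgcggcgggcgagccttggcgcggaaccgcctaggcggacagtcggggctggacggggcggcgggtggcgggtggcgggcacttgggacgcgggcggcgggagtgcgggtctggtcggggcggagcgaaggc
Birc5: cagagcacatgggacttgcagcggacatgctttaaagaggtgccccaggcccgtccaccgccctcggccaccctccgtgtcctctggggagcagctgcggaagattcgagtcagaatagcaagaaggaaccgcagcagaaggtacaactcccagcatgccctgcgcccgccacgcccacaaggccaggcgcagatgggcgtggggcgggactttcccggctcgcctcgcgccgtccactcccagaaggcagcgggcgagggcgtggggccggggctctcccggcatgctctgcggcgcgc
The Ube2c window holds 1 CHR match and 6 CCAAT matches, of which 1 pair overlaps in part on opposite strands. The Cdc20 window holds 1 CHR match and 2 CCAAT matches. The Mki67 window holds 2 CHR matches and 3 CCAAT matches. Birc5 and Nusap1 were the 2 windows with neither motif, and both genes fell in MATIP cells with log2 fold changes of -1.16 and -1.14. A relation between motif matches and response was not tested.

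The cyclins and the entry phosphatase fell in all 5 cases in MATIP cells, with a median log2 fold change of -1.64, and 2 rose and 1 fell in MAflox cells, or 2 and 2 with library totals alone. Ccnb2, a B-type cyclin that partners Cdk1 (chr9:70407692-70421547 in mm10), was measured at 133 and 140.0 CPM in MAflox cells with EtOH and 190.4 and 196 with 4-OHT. The MATIP values were 131 and 138 CPM with EtOH and 40.4 and 40.7 with 4-OHT. The groups do not overlap within either line, and the directions are opposite. Its log2 fold changes were 0.50 ± 0.06 in MAflox cells and -1.73 ± 0.06 in MATIP cells, and the difference of -2.23 ± 0.08 (adjusted p = 1.11e-13) was the largest of the cyclins. Cdk1, the mitotic kinase itself, followed the same course, from 203 and 197 to 247 and 258 CPM in MAflox cells and from 180.1 and 172 to 72.5 and 72.1 CPM in MATIP cells. Its log2 fold changes were 0.34 ± 0.05 and -1.28 ± 0.06. Ccnb1, the main mitotic cyclin, stood at 248 and 253 CPM with EtOH and 247 and 277 CPM with 4-OHT in MAflox cells, where it was not called. MATIP cells took it from 238 and 243 to 70.4 and 64.9 CPM, a log2 fold change of -1.83 ± 0.06. Ccna2, the cyclin of S and G2 phase, fell in both lines, with log2 fold changes of -0.30 in MAflox and -1.64 in MATIP cells. Cdc25c, a phosphatase that activates Cdk1, had the smallest difference of this group. It was the least abundant of the 30 by CPM, at 26.0 and 21.3 CPM in MAflox cells with EtOH and 21.7 and 21.0 with 4-OHT. Its MATIP values were 22.27 and 21.95 CPM with EtOH and 9.91 and 10.3 CPM with 4-OHT, and the responses differed by -0.98 ± 0.15 (adjusted p = 9.51e-06).

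All 6 mitotic kinases fell in MATIP cells (median -1.53), and 3 fell in MAflox cells, or all 6 with scaling by library totals alone. Aurka, the centrosomal Aurora kinase (chr2:172356190-172370535), showed the largest difference. In MAflox cells it was measured at 152 and 152 CPM with EtOH and at 144 and 151 CPM with 4-OHT, and in MATIP cells at 155 and 152 CPM with EtOH and at 49.6 and 51.7 CPM with 4-OHT. The MATIP pair with 4-OHT lay far below the other 6 libraries, and the difference between responses was -1.55 ± 0.08 (adjusted p = 8.35e-12). Aurkb, the kinase of the chromosomal passenger complex, had a log2 fold change of -1.47 in MATIP cells and of -0.14 in MAflox cells, where its adjusted p was 0.0512. Plk1 and Nek2, which act on centrosomes, fell strongly in both lines. Plk1 dropped from 170.2 and 172 to 96.0 and 88.4 CPM in MAflox cells. The fall in MATIP cells was 4.77-fold, from 172 and 171 to 37.1 and 34.8 CPM. Nek2 went from 78.6 and 71.3 to 35.61 and 33.99 CPM in MAflox cells and from 83.2 and 73.4 to 16.7 and 18.4 CPM in MATIP cells, 4.45-fold lower. With Cenpe, Nek2 was 1 of 2 members that changed at least 2-fold in MAflox cells. Bub1, a checkpoint kinase at kinetochores, had log2 fold changes of -0.05 in MAflox and -0.92 in MATIP cells. Ttk, the kinase that starts checkpoint signalling (Mps1), had the smallest difference of the kinases. Its 55.9 and 54.8 CPM in MAflox cells with EtOH became 36.6 and 41.1 with 4-OHT, and its 52.3 and 48.8 CPM in MATIP cells became 23.4 and 22.3. The difference was -0.63 ± 0.11 (adjusted p = 5.50e-05).

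The 3 genes of the checkpoint and the anaphase-promoting complex all fell in MATIP cells and had the lowest median of the role groups there, -2.21. Ube2c, the ubiquitin-conjugating enzyme that works with that complex (chr2:164769898-164778822), had 172 and 160.5 CPM in MAflox cells with EtOH and 179 and 167 CPM with 4-OHT, and those pairs overlap. Its MATIP values went from 207 and 194 CPM to 38.4 and 37.3 CPM, 5.29-fold lower (adjusted p = 7.04e-17). The difference between responses, -2.46 ± 0.09 (adjusted p = 7.55e-14), was the largest of the 30 genes. Cdc20, the activator of the complex and the target of the checkpoint, fell from 178 and 181 to 141 and 143 CPM in MAflox cells. From 159 and 151 CPM in MATIP cells it fell to 32.7 and 34.2 CPM, 4.64-fold lower. Bub1b, which encodes the checkpoint protein BubR1, had the smallest difference of the 3, at -0.92 ± 0.08 (adjusted p = 7.38e-09). It fell from 159 and 162 to 112 and 112 CPM in MAflox cells and from 163 and 172 to 61.7 and 61.1 CPM in MATIP cells. Exons of Ube2c share 592 bases with Tnnc2 on the opposite strand and those of Cdc20 share 53 bases with Elovl1. Whether the counting used strand is not given in the sources used here, so reads of such partners cannot be told apart. The same holds for Ccna2, Cdc25c, Plk1, Kif20a, Nusap1, Nek2 and Prc1, so that 9 of the 30 share exon bases with an opposite-strand gene. Top2a shares 122 bases with Gm23451 on its own strand.

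Of the 6 chromosome and kinetochore genes 5 fell in MATIP cells, and 2 rose and 3 fell in MAflox cells, or 1 and 4 with library totals alone. It was the group that held response differences of both signs. Cenpa, the histone H3 variant that marks centromeres (chr5:30666777-30674830), went from 138 and 135 CPM to 199 and 200.1 CPM in MAflox cells and from 130.1 and 126 CPM to 39.8 and 43.6 CPM in MATIP cells. Within each line its groups are well apart, in opposite directions, with a difference of -2.16 ± 0.08 (adjusted p = 1.98e-13). Top2a, the topoisomerase that untangles sister chromatids, had the highest CPM of the 30 in each group but MATIP cells with 4-OHT, where Mki67 was higher. It stood at 762 and 859 CPM with EtOH and 733 and 820.4 CPM with 4-OHT in MAflox cells, which overlap. In MATIP cells its 679 and 707 CPM became 297 and 287 CPM. Birc5, which encodes survivin of the chromosomal passenger complex, had 135 and 132 CPM in MAflox cells with EtOH and 146 and 164 CPM with 4-OHT. That rise of 0.21 in log2 was called (adjusted p = 0.00684), but not without the second library of either MAflox group (adjusted p = 0.0503 without the EtOH one and 0.0900 without the 4-OHT one) or with scaling by library totals alone (0.588).

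Mki67, the gene of the proliferation antigen Ki-67 that coats mitotic chromosomes (chr7:135689784-135716361), went against the rest. In MAflox cells it had 348 and 405 CPM with EtOH and 214 and 199 CPM with 4-OHT, a log2 fold change of -0.87 ± 0.07. The MATIP values were 454 and 465 CPM with EtOH and 468 and 443 CPM with 4-OHT. These pairs overlap, the log2 fold change was -0.01 ± 0.07 (adjusted p = 0.866), and the authors' deposited table gives 0.0286 with an adjusted p of 0.686. The difference between responses was 0.85 ± 0.09 (adjusted p = 2.42e-07). Cenpe, the kinetochore motor that brings chromosomes to the metaphase plate (chr3:135212537-135273611), fell in both lines but more in MAflox cells. Its 104 and 108 CPM became 47.5 and 45.9 CPM in MAflox cells, and its 115 and 109.6 CPM became 68.7 and 67.4 CPM in MATIP cells. The log2 fold changes were -1.19 ± 0.06 and -0.72 ± 0.06, and their difference was 0.46 ± 0.09 (adjusted p = 1.02e-04).

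Mki67 and Cenpe have 2 of the 3 longest transcripts of the 30 genes, at 10061 and 7910 bases, beside 11130 bases for Cenpf and 1531 for Ccnb2. Over 13195 tested genes the log2 fold change in MAflox cells was related to the log of transcript length with a Spearman's rho of -0.26, and the difference between responses with 0.26. The MATIP response over all those genes gave a rho of 0.0457. Across the 30 members rho was -0.04 for the MAflox response, 0.57 for the MATIP response and 0.48 for the difference. Pearson's r of the members was -0.28, 0.60 and 0.66 in that order, beside -0.17, 0.02 and 0.18 over all those genes. These are descriptions across genes of the same libraries. When the trend of all genes with length and GC content was taken out of each comparison, the Mki67 difference went from 0.85 to 0.11 and the Cenpe difference from 0.46 to 0.02. The same step took the difference of Cenpf, a kinetochore protein of G2 and M phase, from -0.79 to -1.48. After it all 30 MATIP values lay below 0, Mki67 at -0.21 and Cenpe at -0.79, while 11 MAflox values lay above 0. The part of RNA quality or library preparation in this trend was not tested.

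**Figure D3:**
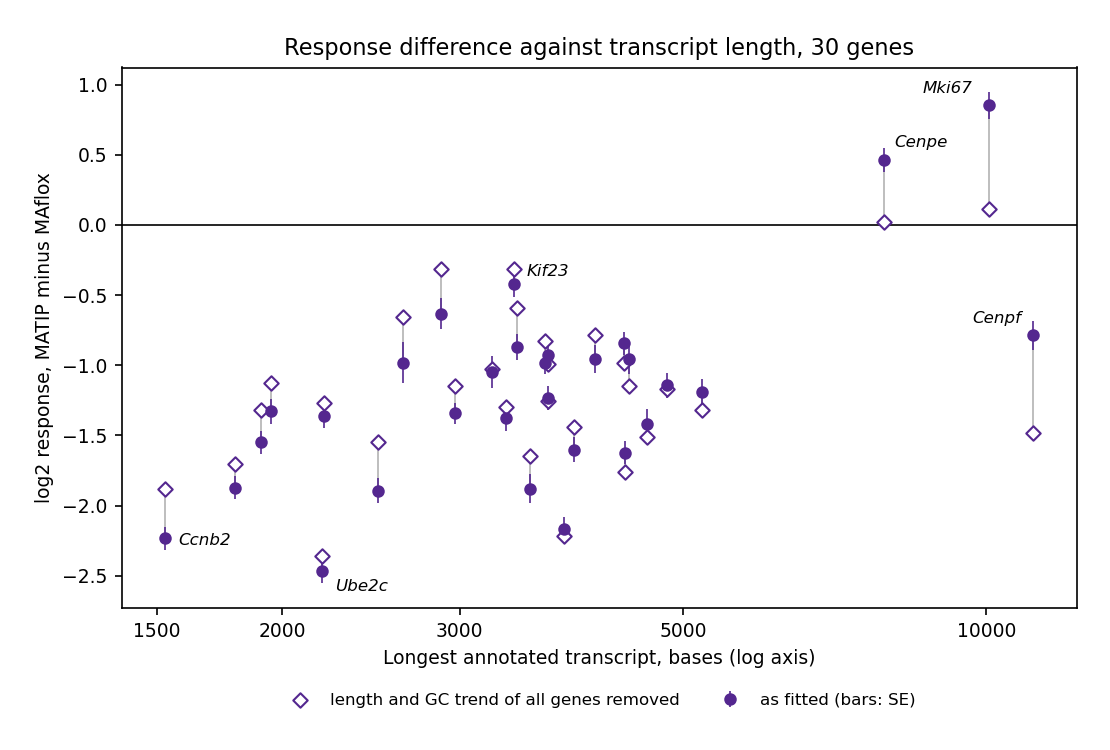
Response difference (MATIP minus MAflox, log2) of each mitosis gene against the length of its longest annotated transcript on a log axis, as fitted with bars of 1 SE and after removal of the length and GC trend of all genes. Mki67 and Cenpe are the 2 genes above 0 and move to 0.11 and 0.02 when the trend is removed.

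The 5 spindle genes all fell in MATIP cells (median -1.14), and 2 rose and 1 fell in MAflox cells, or 2 and 2 with library totals alone. Nusap1, which bundles spindle microtubules (chr2:119618298-119651244), had the largest rise of all 30 in MAflox cells, from 96.8 and 108 CPM to 161 and 180.2 CPM. In MATIP cells Nusap1 dropped from 87.6 and 82.6 CPM to 37.2 and 39.6 CPM. The log2 fold changes of 0.73 ± 0.07 and -1.14 ± 0.07 differed by -1.88 ± 0.10 (adjusted p = 1.36e-11). Tpx2, the spindle assembly factor that activates Aurka, had the smallest difference, -0.84 ± 0.08 (adjusted p = 4.53e-08), and fell in both lines. It was measured at 228 and 243 CPM and then 177 and 192 CPM in MAflox cells, and at 241 and 236 CPM and then 104 and 105 CPM in MATIP cells. Kif11, the kinesin that pushes spindle poles apart, had log2 fold changes of 0.07 in MAflox and -1.08 in MATIP cells. For Hmmr, a spindle pole protein, they were -0.05 and -1.65. Dlgap5, a stabiliser of kinetochore fibres, had log2 fold changes of 0.45 in MAflox and -0.51 in MATIP cells, the smallest fall of those called there.

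The genes of the midzone and of cytokinesis also fell in 5 of 5 cases in MATIP cells, with the smallest group median, -0.94, and 2 rose and 1 fell in MAflox cells, or 1 and 3 with library totals alone. Anln, the ring scaffold anillin (chr9:22332012-22389188), rose from 114 and 126 CPM to 144 and 163 CPM in MAflox cells and fell from 101 and 112 CPM to 53.3 and 49.0 CPM in MATIP cells. Neither line's groups overlap, and the difference was -1.42 ± 0.11 (adjusted p = 1.09e-09). Kif23, the kinesin of the centralspindlin complex, had the smallest difference of the 30 in size, -0.42 ± 0.10 (adjusted p = 8.11e-04). Its 70.6 and 70.6 CPM in MAflox cells with EtOH stood beside 63.5 and 67.2 CPM with 4-OHT, where it was not called. In MATIP cells 57.8 and 53.0 CPM became 38.2 and 38.4 CPM. Kif20a, the kinesin that carries Aurora B to the midzone, fell in both lines, with log2 fold changes of -0.54 and -1.78. Prc1, the crosslinker of midzone microtubules, had log2 fold changes of 0.05 and -0.94, and its MAflox value turned to -0.13 with scaling by library totals alone. Ect2, the exchange factor that activates RhoA at the cleavage site, had log2 fold changes of 0.20 in MAflox and -0.76 in MATIP cells. Its MAflox rise (adjusted p = 0.0183) was not called without MAflox EtOH replicate 1 (0.163), without MAflox 4-OHT replicate 2 (0.206) or with scaling by library totals alone (0.768).

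Before 4-OHT the lines differed little in these genes. In EtOH 3 of the 30 were higher in MATIP than in MAflox cells (Mki67, Cenpf and Ube2c) and 6 were lower (Cdk1, Cdc20, Top2a, Kif20a, Kif23 and Nusap1). Of all tested genes 20.3% were called higher and 11.7% lower. The log2 differences lay between -0.35 for Kif23 and 0.29 for Mki67, with a median of -0.0773. Those counts rested on single libraries: without MAflox EtOH replicate 2 the lower genes numbered 1 and without MAflox EtOH replicate 1 the higher genes numbered 1. They numbered 11 lower without either MAflox library with 4-OHT.

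Per kilobase of annotated exon, the highest members in MAflox cells with EtOH were Cdc20 at 96.2 CPM per kb, Top2a at 89.9, Ccnb2 at 89.3 and Plk1 at 77.8. The lowest were Cenpf at 3.54 and Cdc25c at 4.81. In MATIP cells with 4-OHT the order changed, with Mki67 at 45.3 CPM per kb first and Top2a at 32.4 second.

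The rest of the mitotic machinery was described by lists written by role, not by how the genes moved, and also with earlier results of these data known. All 7 lists fell in most of their tested genes in MATIP cells. Of 35 other kinetochore genes 31 fell and 1 rose there, with a median of -0.83, whereas in MAflox cells 16 rose and 9 fell, or 6 rose and 14 fell with scaling by library totals alone. Spc25, a subunit of the Ndc80 complex, rose in MAflox and fell in MATIP cells (0.69 and -0.60 in log2). Mis12, of the complex of that name, was the 1 riser in MATIP cells, at 0.19, but was not called with library totals alone. Among 30 other spindle, kinesin and centrosome genes 28 fell and 1 rose in MATIP cells, and 6 rose and 16 fell in MAflox cells, or 2 and 21 with library totals alone. The riser was Haus8, an augmin subunit, at 1.03 in MATIP and -0.34 in MAflox cells. Psrc1, a microtubule-binding protein, rose in MAflox and fell in MATIP cells (1.05 and -0.91 in log2).

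Of 21 cohesin, condensin and separase genes 20 fell in MATIP cells (median -0.81), beside 3 rises and 10 falls in MAflox cells, or 2 and 16 with library totals alone. Ncapd2, a condensin subunit, fell in both lines, with log2 fold changes of -1.49 in MATIP and -0.81 in MAflox cells. For Espl1, the separase that cuts cohesin, the values were -1.44 and -1.18. Of 19 other entry kinases and phosphatases 16 fell and 2 rose in MATIP cells, and 5 rose and 8 fell in MAflox cells, or 2 and 10 with library totals alone. The risers in MATIP cells were Cdc25b, a relative of Cdc25c, with 1.24 there and 0.88 in MAflox cells, and Ensa, an inhibitor of the phosphatase PP2A, with 0.24 and 0.81, of which Ensa was not called in MATIP cells with library totals alone. Wee1, the kinase that holds Cdk1 inactive, fell in both, at -1.41 in MATIP and -0.85 in MAflox cells. Of 22 other genes of the checkpoint and the anaphase-promoting complex 17 fell and 1 rose in MATIP cells, and 5 rose and 8 fell in MAflox cells, or 2 and 14 with library totals alone. Trip13, which remodels the checkpoint protein Mad2, had log2 fold changes of -1.79 in MATIP and -0.08 in MAflox cells. Anapc1, a scaffold subunit, fell in both (-0.74 and -1.39), and the small subunit Anapc13 rose in both (1.13 and 0.65).

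**Figure D4:**
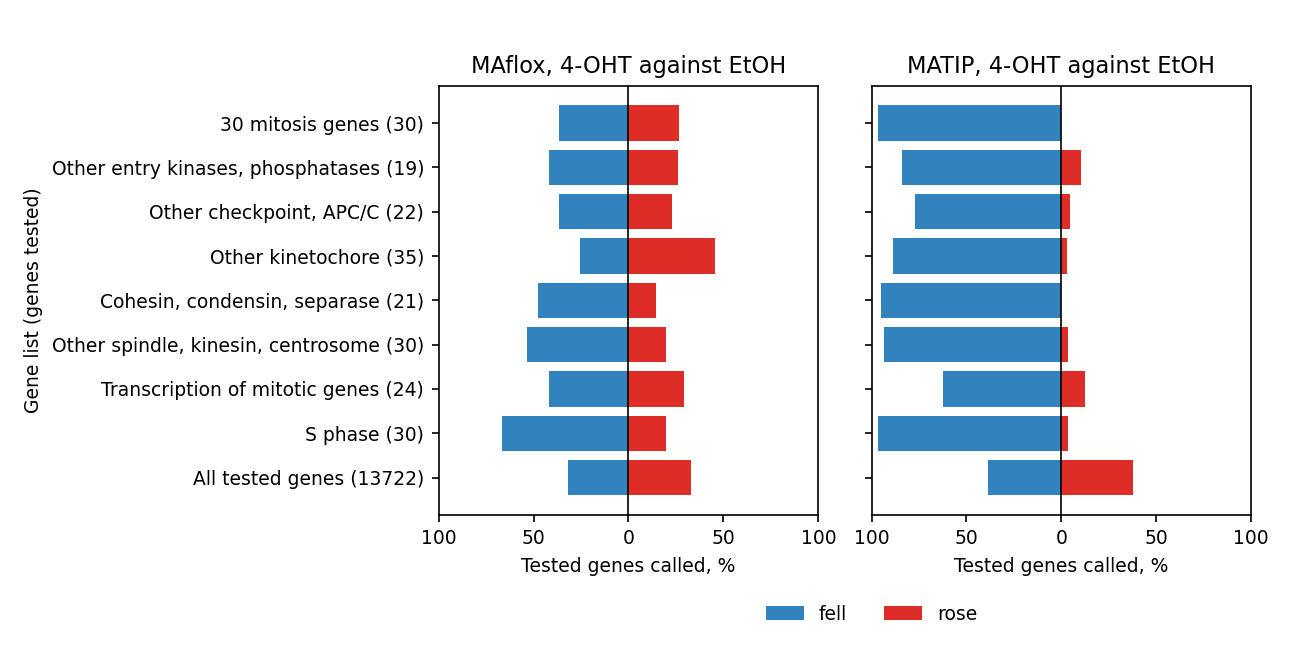
Share of tested genes that rose or fell with 4-OHT, in percent, in the 30 mitosis genes, in 7 lists of related genes and in all 13722 tested genes, for MAflox (left) and MATIP cells (right). Falls prevail in every list in MATIP cells, where 38.6% of all tested genes fell, and every list holds both rises and falls in MAflox cells.

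Of 24 genes for transcription factors of mitotic and other cell cycle genes and for their partners, 15 fell and 3 rose in MATIP cells. In MAflox cells 7 rose and 10 fell, or 4 and 13 with library totals alone. Mybl2, the MuvB partner B-Myb, averaged 179 CPM in MATIP cells with EtOH and 43.4 CPM with 4-OHT, and 149 and 85.6 CPM in MAflox cells. Its log2 fold changes were -2.04 and -0.80. Foxm1, a forkhead activator of G2 and M phase genes chosen for that role, fell in both lines (-0.96 in MATIP and -0.79 in MAflox cells), and the difference of -0.17 ± 0.10 was not called (adjusted p = 0.159). E2f2, which encodes an E2F activator, moved the other way, from 20.2 to 332 CPM in MATIP cells and from 22.1 to 75.1 CPM in MAflox cells. Its log2 rises were 4.03 ± 0.10 and 1.76 ± 0.10. In a list of 30 S-phase genes 29 fell in MATIP cells, with a median of -1.12, close to the -1.27 of the mitosis genes, and 6 rose and 20 fell in MAflox cells, or 2 and 22 with library totals alone. Mcm2, of the replicative helicase, fell in both lines, at -1.86 in MATIP and -0.55 in MAflox cells.

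Summed markers of maturing myeloid cells rose with 4-OHT in both lines, by unlike amounts. The median log2 fold change of tested macrophage markers was 1.75 in MAflox and 4.75 in MATIP cells. For mature neutrophil markers it was 7.18 in MAflox and 5.90 in MATIP cells. The summed level of 13 mature neutrophil markers lay between 301 and 303 CPM in MAflox cells with EtOH and between 52389 and 56160 CPM with 4-OHT. In MATIP cells the sums went from a range of 944 to 1102 CPM to one of 54685 to 58669 CPM, and all 13 rose in both lines. The sum of 15 macrophage markers went from a range of 296 to 309 CPM to one of 5026 to 5133 CPM in MAflox cells and from a range of 426.5 to 464 CPM to one of 18655 to 19712 CPM in MATIP cells. Of 12 such markers tested, 10 rose in MAflox and 12 in MATIP cells, while C1qa, C1qb and C1qc were at 0 in both MAflox groups, C1qa and C1qb in MATIP cells with EtOH and C1qa in those with 4-OHT. Of the 13 neutrophil markers 4 had a higher and 7 a lower response in MATIP than in MAflox cells. The part of cell maturation or of the mix of cell types in the mitosis gene values was not tested. Lymphoid markers summed to at most 1.04 CPM, with Cd3e, Pax5, Rag1 and Ncr1 at 0 in every group, and markers of red cells and platelets summed to 1.52 to 9.26 CPM. Stromal and endothelial markers summed to 58.0 to 91.4 CPM, most of it Pecam1, with Dcn and Lum at 0 in every group.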

How the data were processed

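Per the labels' protocols, a Qiagen RNeasy Plus kit yielded the total RNA of 8 samples of bone marrow cells, 2 in each of 4 groups named by the sample titles. The submitters' processing notes name mm10 as the build and, as tools, HISAT2 2.1.0, Trimmomatic 0.38.0, DESeq2 and featureCounts 1.6.4. Not given in the sources used here are the strand setting, the annotation and how multi-mapped reads were treated. The first deposited table gives raw counts by gene symbol for the 8 libraries. It has 23 columns that are empty and 0 other columns of values that match no sample. Another deposited table gives log2 fold changes with 4-OHT, computed by the authors for either line. The p-values beside them are the authors' adjusted ones, per the file headers.

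From the counts, genes passing filterByExpr by group (minimum count 10, minimum total 15) were tested with edgeR 4.0.16 in R 4.3.3: TMM scaling, all 8 libraries, 1 coefficient per group, the quasi-likelihood test, 4 residual degrees of freedom, Benjamini-Hochberg adjustment over the 13722 genes within a comparison, and calls at 0.05. CPM are TMM-scaled. A standard error is the log2 fold change over the square root of F. Lengths, exons and positions are those of GENCODE M21 on mm10, with length and GC content known for 96.2% of tested genes. Their trend was a robust natural spline with 4 degrees of freedom, and values with it removed have no test. The counts of 2 replicates always differed beyond Poisson noise, with a chi-square of 7.33 to 13.6 per degree of freedom. Replicate numbers were not used to pair the samples in the main fit.

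The members, the lists and the motifs were chosen with earlier results of these data known. Named in full were, in each role group, the members with the largest and the smallest response difference and any that went against their group, and in each list the called gene with the smallest p in each direction and line. Other members and partners are named for their role. Some genes that this rule or the marker lists pick are not reported here. Alternatives were DESeq2 1.42.0, RLE factors, library totals alone, no filter on low counts, the libraries of a comparison only, a replicate block, each library left out, and the trend removed.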

Additional observations from a re-analysis of the deposited data

Results flagged for a closer look

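All 30 mitosis genes are listed here because their responses to 4-OHT differed between the lines by a test of the difference itself (edgeR's interaction contrast, called at an adjusted p of 0.05 over all tested genes). Each value is the log2 fold change in MATIP cells minus that in MAflox cells. Among all tested genes 33.6% were called lower and 28.3% higher in this contrast.

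For the cyclins and entry genes the differences were -1.8936 for Ccnb1, -2.2334 for Ccnb2, -1.3440 for Ccna2, -1.6223 for Cdk1 and -0.9821 for Cdc25c. The mitotic kinases gave -1.5499 for Aurka, -1.3296 for Aurkb, -1.3624 for Plk1, -0.8712 for Bub1, -0.6335 for Ttk and -1.0478 for Nek2. Genes of the checkpoint and the anaphase-promoting complex stood at -2.4640 for Ube2c, -1.8734 for Cdc20 and -0.9248 for Bub1b, the group with the lowest median. In the chromosome and kinetochore group the values were -2.1649 for Cenpa, -1.3786 for Birc5, -1.1878 for Top2a, -0.7875 for Cenpf, 0.4642 for Cenpe and 0.8522 for Mki67, so that Mki67 and Cenpe were the genes with a lower response in MAflox cells. Spindle genes differed by -1.8796 for Nusap1, -1.6013 for Hmmr, -1.1424 for Kif11, -0.9557 for Dlgap5 and -0.8436 for Tpx2. Midzone and cytokinesis genes differed by -1.4161 for Anln, -1.2344 for Kif20a, -0.9845 for Prc1, -0.9546 for Ect2 and -0.4214 for Kif23.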

How the results depend on the processing

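The falls in MATIP cells (29 of 30) and the response differences (28 lower, 2 higher) kept their counts under every alternative that gives a test, and 0 of those calls was lost for any member. Of 1770 gene values under alternatives, 1631 counted as unchanged. Called values had to keep direction and call, and uncalled values had to stay uncalled in either direction. With the trend removed, which has no test, a move smaller than the SE of the fit counted as unchanged. With DESeq2 or with RLE factors, the median log2 fold change in MATIP cells was -1.19 and the median difference -1.14, and with library totals alone the MATIP median was -1.40. The MAflox median of -0.0569 was less settled: -0.23 with library totals alone, -0.13 with the trend in length and GC removed, and -0.1236 to 0.0042 with 1 library left out, above 0 only without MAflox 4-OHT replicate 1. With library totals alone 19 members fell in MAflox cells, and Prc1 turned to -0.1259 (adjusted p = 0.0483), while the share of rises among calls over all genes went from 50.83% to 38.79% in MAflox cells and from 63.35% to 53.46% between the lines in EtOH. In those 2 cases that scaling shifted the median log2 value of all tested genes by -0.163 and -0.0355. Why the scalings differ was not tested. In EtOH the members lower in MATIP cells numbered 10 with RLE factors, 12 with library totals alone, 10 with no filter and 11 with the 4 EtOH libraries alone, and 1 to 11 with 1 library left out, and those higher 1 to 3. The median difference ranged from -1.2875 to -1.1392 with 1 library left out. The labels do not say whether same-numbered libraries belong together. Their deviations from the group means correlated at -0.0023 in MAflox and -0.0391 in MATIP cells. With 2 libraries a group that cannot settle the pairing. A replicate block left the counts at 8 and 11, 0 and 29, 2 and 28, and 3 and 6. The MATIP median was then -1.2664. The difference uses all 8 libraries, so fitting its own libraries gives no other value, and the trend gives no counts. The shallowest library held 41101309 counts, and the lowest level of any member was 9.91 CPM (Cdc25c).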
